A study of Mus musculus with 16 samples.

Results

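Whole lungs of wild-type mice were compared with cultured skin fibroblasts of wild-type mice on Affymetrix mouse expression arrays. WT lungs came from mice 1592, 1624 and 1593 (n = 3), and the WT fibroblasts they were set against were grown from the skin of mice 1571 and 1623 (n = 2). Both groups carry the normal Myo1c gene, from which nuclear myosin 1 (NM1), the protein removed in the knockout (KO) mice of the same series, is made. KO lungs (n = 3) and KO fibroblasts (n = 2) of other mice gave the same organ comparison a second time. WT heart (n = 3), from the same mice as the WT lungs, is used as a further tissue level. Of 45037 probe sets, 25282 were members of the comparison because their mean lay above the median of the whole table, 3.79 on the log2 scale, in the lungs or in the fibroblasts. They cover 11449 of the 17097 genes named on the array. Of the members, 19667 lay above the median in both groups, 3477 passed through the lungs alone and 2138 through the fibroblasts alone. For the mouse strain and age, the culture time and the growth medium, nothing is stated in the labels. No mouse gave both a lung and a fibroblast array, and a whole organ and a cell culture differ in organ, in cell types and in growth conditions at once, so these cannot be told apart.

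A lung is built for gas exchange. Flat type I cells line the alveoli beside capillaries, type II cells make surfactant, the lipid and protein film that lowers surface tension, and ciliated and secretory cells line the airways. Fibroblasts make collagen and other matrix in nearly every organ, and when they are put in culture on plastic they divide, spread, form stress fibres and secrete cytokines. A whole-lung RNA sample is a mixture of all lung cell types, so a gene can be lower in it because fewer cells carry the transcript or because each cell carries less, and bulk arrays cannot tell these apart.

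The arrays carried the markers of their labels. Sftpc, which encodes the surfactant protein made by type II cells, had a log2 signal of 13.9, 14.1 and 14.1 in WT lungs 1592, 1624 and 1593, against 3.25 and 3.39 in WT fibroblasts 1571 and 1623, and all values by array below follow this order. Col1a1, the main chain of type I collagen, had 5.95, 6.51 and 6.06 in WT lungs, against 11.4 and 10.9 in WT fibroblasts. Thy1, a surface protein of fibroblasts, had 5.52, 5.50 and 5.47 in WT lungs, against 11 and 11.4 in WT fibroblasts. Each marker separated the 2 groups without overlap, as did 19715 of the 25282 members (78%). Xist, the RNA of the silenced X chromosome, lay between 3.48 and 3.78 in WT lungs and between 3.47 and 3.55 in WT fibroblasts, and the Y-linked gene Eif2s3y between 7.27 and 7.94 in WT lungs and between 7.67 and 7.69 in WT fibroblasts, so both groups showed the male pattern. Array medians were 3.86 to 3.91 in WT lungs and 3.65 to 3.72 in WT fibroblasts. Across probe sets, which are not independent replicates, arrays correlated with r from 0.983 to 0.993 among WT lungs, 0.986 between the WT fibroblasts and 0.850 to 0.865 between the groups.

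Most members differed between the groups. By limma, with Benjamini-Hochberg adjustment over the 25282 members and an adjusted p under 0.05 as the threshold for a call, 7045 probe sets (27.9%) were called higher and 7826 (31%) were called lower in WT lungs. With a difference of at least 4-fold added as a second condition, 2171 (8.59%) were higher and 1402 (5.55%) lower. Centring each array on its own median shifted the median difference over all probe sets to -0.22 from -0.03, and the higher share of the calls was then 37.2% in place of 47.4%. Taking for each gene its brightest probe set on average over all 16 arrays, 11436 genes were tested (p adjusted over all members), of which 3276 (28.6%) were higher and 3637 (31.8%) lower, and 1236 (10.8%) were at least 4-fold higher and 652 (5.7%) at least 4-fold lower. The median difference over the tested genes was -0.07. List counts below are over measured genes unless stated otherwise, and are to be read beside the 28.6% and 31.8% of tested genes. The files give no detection calls, and of the probe sets at least 4-fold higher 1297 had a fibroblast mean at or below the table's median, as had 503 of those at least 4-fold lower for their lung mean. A fold against such a weak signal depends on the array's background and is a ratio of signals, not of RNA amounts.

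**Figure D1:**
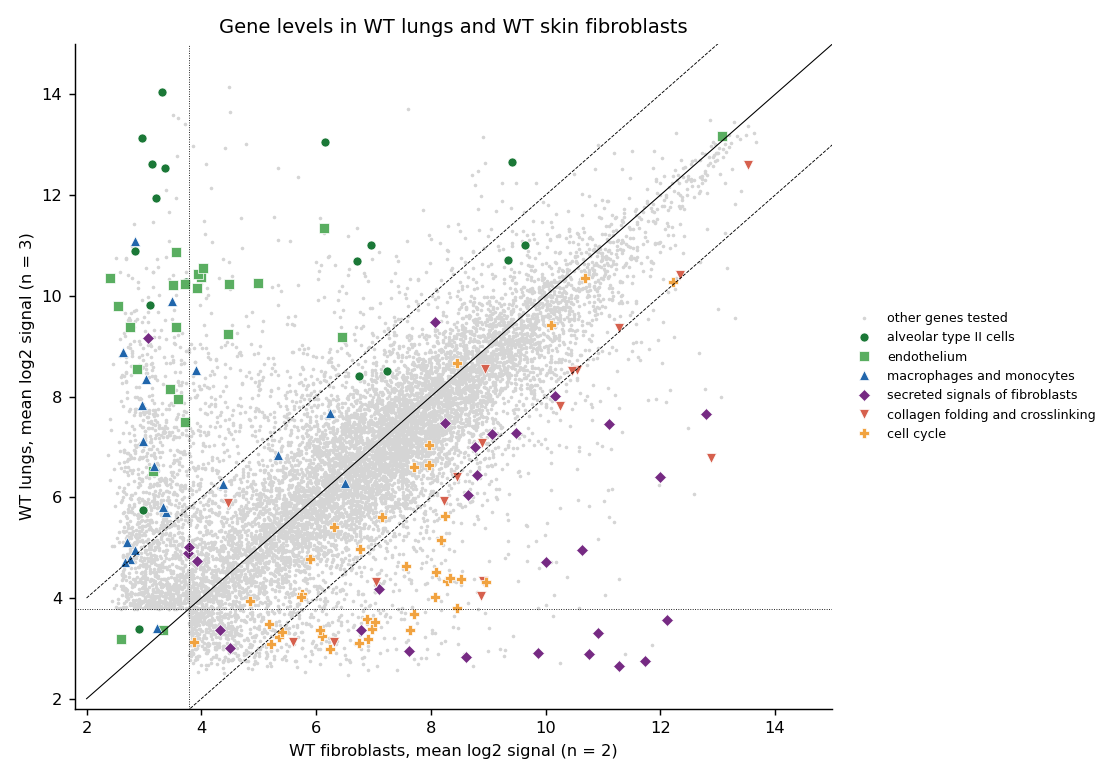
Mean log2 signal of each tested gene in WT lungs (vertical axis, n = 3) against WT fibroblasts (horizontal axis, n = 2), with the measured members of 6 gene lists in colour, including those below the filter. The solid line marks equal signal, the dashed lines a 4-fold difference and the dotted lines the table median of 3.79, and most type II and endothelial genes lie above the upper dashed line while most secreted signals lie below the lower one.

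The KO arrays repeated the comparison in other animals. Among 25596 probe sets tested there, 7450 (29.1%) were called higher and 8957 (35%) lower in KO lungs than in KO fibroblasts. Of the probe sets called higher in WT, 6137 (87.1%) were also called higher in KO, and of those called lower in WT, 7201 (92%) were called lower. Counted from the other side, 82.4% of the KO calls for higher and 80.4% of those for lower were also made in WT. Of those at least 4-fold higher or lower in WT, 99.6% and 99.3% were called the same way in KO. A direct test of the difference between the genotypes' contrasts called 3 of 26129 probe sets. With 2 cultures per genotype, few calls in this test do not show that the contrasts were equal.

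Genes were ranked among those called in WT without overlap between the lungs and the cultures. The 10 genes with the largest positive difference were Sftpc, Sftpa1, Scgb3a2, Ager, Hba-a1, Scgb1a1, Sftpd, Wfdc2, Cxcl15 and Cyp2f2, with differences of 10.72 to 9.14 log2. The 10 with the largest negative difference were Cxcl5, Ptx3, Il6, Cxcl1, Prl2c2, Ccl7, Ccl2, Cemip, Ecrg4 and Grem1, with differences of -8.98 to -6.96 log2. Hba-a1, an alpha globin, and Prl2c2, a proliferin, belong to families of near-identical copies, which a probe set may not tell apart.

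**Figure D2:**
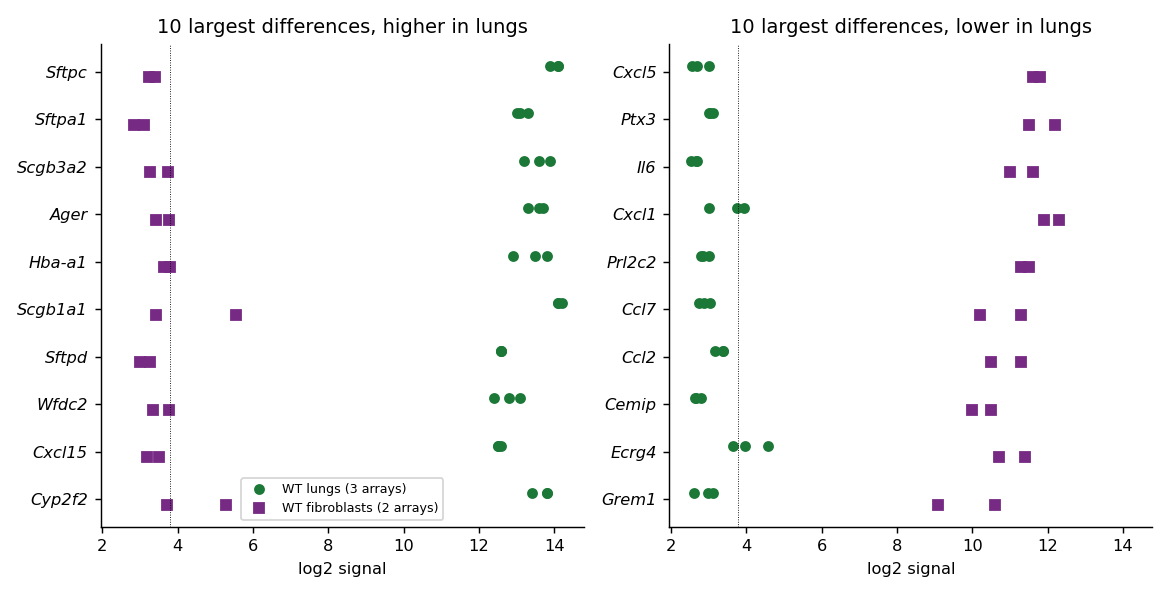
Log2 signal in each array for the 10 genes with the largest difference in each direction, with WT lungs as circles (3 arrays) above WT fibroblasts as squares (2 arrays) and the table median of 3.79 as a dotted line. Only called genes without overlap between the groups were ranked, so the absence of overlap was set by the choice. Scgb1a1 and Cyp2f2 show the widest gap between the 2 fibroblast cultures among the genes higher in lungs.

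Genes of alveolar type II cells, which make surfactant, were higher in WT lungs. Of 18 measured genes of the list, 17 were called higher and none lower, with a median difference of 5.28. The other one, Nkx2-1, the lung's lineage factor, lay below the filter in both groups (difference 0.46, adjusted p = 0.045 with no filter) and was named after its value was seen. Sftpa1, a surfactant collectin that binds microbes, had 13, 13.3 and 13.1 log2 in WT lungs, against 2.84 and 3.11 in WT fibroblasts. The difference was 10.16 ± 0.17 (SE; adjusted p = 6.41e-14), and every lung lay above both cultures. Sftpd, the second surfactant collectin, had 12.6 in each WT lung, against 3.26 and 3.01 in WT fibroblasts, a difference of 9.47 ± 0.19 (SE; adjusted p = 2.03e-13). Cxcl15, a chemokine of lung epithelium, differed by 9.17 ± 0.26, Hc, complement component C5, by 8.05 ± 0.36 and Lyz2, a lysozyme that macrophages also make, by 6.91 ± 0.21 (SE). The difference for Sftpc was 10.72 ± 0.53 (SE; adjusted p = 1.04e-09) in WT and 11.04 in KO.

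Genes of type I cells, the thin cells across which gas diffuses, were higher as well. Of 14 measured genes, 12 were called higher and none lower (median difference 5.74), and the 2 without a call, Pdpn at -0.86 and Igfbp2 at -0.44, were named after their values were seen. Pdpn, podoplanin, was called lower in a fit of the 5 compared arrays (adjusted p = 0.00822), of the 8 WT arrays (0.0412) or with centred arrays (0.0394). Ager, a receptor that is abundant on type I cells, had 13.3, 13.6 and 13.7 log2 in WT lungs, against 3.78 and 3.42 in WT fibroblasts. The difference was 9.94 ± 0.26 (SE; adjusted p = 2.25e-12), and the groups lay far apart. Hopx, a homeodomain protein of type I cells, differed by 8.52 ± 0.18, and its mean in WT heart was 12.03. Aqp5, a water channel, differed by 5.78 ± 0.42 and was unequal between the cultures, with 4.42 and 6.25. Cldn18, a tight junction protein, differed by 8.18 ± 0.30 and Clic5, an intracellular chloride channel protein, by 7.89 ± 0.30 (SE).

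Promoters are shown for the genes with the largest differences that have an entry in the RefSeq table used here (build GRCm38.p6), from 250 bases before to 50 bases after the start, to let the regulatory sequence be read beside the level. Sftpa1 (chr14:41131538-41131837, plus strand) and Ager (chr17:34597600-34597899, plus strand) are the first of the genes higher in WT lungs. Capitals mark the TATA box TATAAA, the AP-1 site TGANTCA, the CCAAT box, the CArG box and the kappa B motif on either strand, and overlapping matches form 1 run. The window of Sftpa1 holds a TATAAA shortly before the start. That of Ager holds a CArG box that overlaps a CCAAT on the other strand.
Sftpa1: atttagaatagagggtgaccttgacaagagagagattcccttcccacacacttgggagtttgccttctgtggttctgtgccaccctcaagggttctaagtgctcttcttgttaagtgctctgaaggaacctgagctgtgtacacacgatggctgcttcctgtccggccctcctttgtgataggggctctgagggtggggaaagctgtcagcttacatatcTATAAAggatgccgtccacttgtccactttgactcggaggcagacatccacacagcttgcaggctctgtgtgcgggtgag
Ager: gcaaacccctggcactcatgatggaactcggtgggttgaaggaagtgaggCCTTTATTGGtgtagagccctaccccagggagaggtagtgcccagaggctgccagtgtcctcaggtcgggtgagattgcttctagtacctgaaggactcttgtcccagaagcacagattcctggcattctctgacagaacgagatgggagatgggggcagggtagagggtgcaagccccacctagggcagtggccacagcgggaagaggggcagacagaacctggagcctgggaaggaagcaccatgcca

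Airway genes were also higher in WT lungs, with large differences among the lungs. Of 13 measured secretory genes, 12 were called higher and none lower (median difference 6.43). Scgb1a1, the main protein of club cells, had 14.1, 14.2 and 14.1 log2 in WT lungs, against 5.55 and 3.44 in WT fibroblasts, a difference of 9.66 ± 0.93 (SE; adjusted p = 9.84e-07). Its level was even in lungs and differed between cultures. Scgb3a1, a secretoglobin of the upper airway, had 13.8, 10.5 and 8.07 in WT lungs, against 3.47 and 3.31 in WT fibroblasts, a difference of 7.39 ± 2.05 (SE; adjusted p = 0.00692). Here the lungs themselves spread widely and 1592 was highest. Scgb3a2, another secretoglobin, differed by 10.08 ± 0.26 and Cyp2f2, a cytochrome P450 of club cells, by 9.14 ± 0.35 (SE).

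All 11 measured genes of ciliated cells, which move mucus out of the airways, were called higher, with a median difference of 3.45. Foxj1, the transcription factor that drives cilia formation, had 8.39, 7.54 and 6.50 log2 in WT lungs, against 3.15 and 3.10 in WT fibroblasts, a difference of 4.35 ± 0.47 (SE; adjusted p = 3.12e-06). Dnah5, a dynein of the outer arm, had 6.71, 5.36 and 4.55 in WT lungs, against 3.00 and 2.94 in WT fibroblasts. The order 1592, 1624, 1593 held in both genes. Tppp3, a tubulin-binding protein, differed by 6.87 ± 0.39, Rsph4a, a radial spoke protein, by 4.65 ± 0.35 and Ccdc39, a ruler of cilia structure, by 3.25 ± 0.49 (SE). The mean over the list was 8.20, 7.19 and 6.36 in WT lungs, against 3.24 and 3.45 in WT fibroblasts.

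Other lists had the same lung on top. The mean over the adipocyte list was 7.78, 5.10 and 4.95 log2 in WT lungs, against 5.17 and 4.04 in WT fibroblasts. None of its 7 measured genes was called in WT (median difference 1.57), whereas 5 were called higher in KO (median difference 3.18). Adipoq, the fat hormone adiponectin, had 9.83, 3.99 and 3.45 in WT lungs, against 2.75 and 2.69 in WT fibroblasts. For Adipoq the lung of 1592 alone stood high. The atrial and heart muscle list had means of 8.42, 6.70 and 6.48 in WT lungs, against 3.72 and 3.76 in WT fibroblasts, and 12.4 to 13.1 in WT heart, and 7 of its 10 genes were called higher and 1 lower. Myl7, the atrial myosin light chain, differed by 7.51 ± 1.74 and Tnnt2, cardiac troponin T, by 5.99 ± 1.08 (SE), whereas Nppb, a natriuretic peptide, fell by 2.16. Without the lung of 1592, or without one of the other arrays, the higher calls of this list numbered 4 to 7. The part of these cell types in other results was not tested. The SE of every gene, cardiac genes included, pools the spread within all 6 groups, among them hearts and KO arrays.

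All 7 genes of mesothelium, the outer lining of the lung, were called higher, with a median difference of 5.21. Upk3b, a uroplakin, differed by 7.25 ± 0.82, Gpm6a, a membrane glycoprotein, by 6.18 ± 0.48 and Msln, mesothelin, by 5.21 ± 0.63 (SE). Of 18 genes of epithelial junctions and keratins, 16 were higher and none lower (median difference 4.72). Cdh1, E-cadherin, had 10.6, 10.9 and 10.8 log2 in WT lungs, against 2.71 and 2.68 in WT fibroblasts, and the groups did not overlap. Krt8 and Krt18, the paired keratins of simple epithelia, differed by 7.33 ± 0.38 and 6.91 ± 0.54 (SE).

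**Figure D3:**
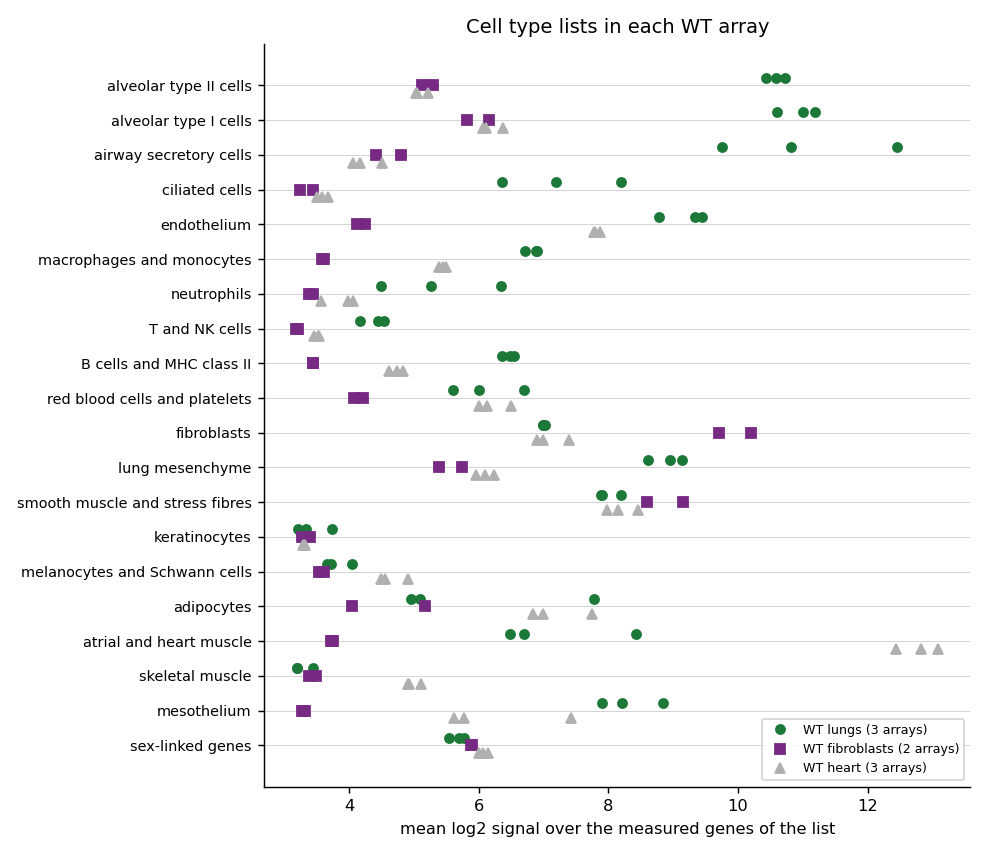
Mean log2 signal over the measured genes of each cell type list in every WT array, with WT lungs as circles (3 arrays), WT fibroblasts as squares (2 arrays) and WT heart as triangles (3 arrays). The 3 lungs spread for airway secretory genes (12.4, 10.8 and 9.76) and lie close together for macrophage genes, and both cultures lie above all lungs for the fibroblast list and, by less, for smooth muscle and stress fibres.

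Genes of endothelium, the lining of vessels, were higher in WT lungs. Of 24 measured, 21 were called higher, each at least 4-fold, and none lower (median difference 5.71). The mean over the list was 8.78 to 9.44 in WT lungs, 7.78 to 7.87 in WT heart and 4.12 to 4.24 in WT fibroblasts. Ramp2, Prox1 and Flt4 were the 3 without a call and were named after their values were seen. Vwf, the clotting factor stored in endothelium, had 10.1, 10.6 and 10.4 log2 in WT lungs, against 2.21 and 2.61 in WT fibroblasts, a difference of 7.95 ± 0.34 (SE; adjusted p = 2.74e-10). Cdh5, the cadherin of endothelial junctions, had 9.27, 9.95 and 10.2 in WT lungs, against 2.40 and 2.69 in WT fibroblasts. Both genes lay below the table median in the cultures. Pecam1, an adhesion molecule, differed by 6.63 ± 0.33, Kdr, a VEGF receptor, by 6.38 ± 0.34 and Cldn5, a claudin of vessels, by 7.32 ± 0.36 (SE).

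Immune cell lists had higher calls and no lower ones in WT lungs, in numbers that differed by list. Of 19 macrophage and monocyte genes, 17 were called higher and none lower (median difference 2.40). Chil3, a chitinase-like protein of alveolar macrophages, had 10.9, 11.1 and 11.3 log2 in WT lungs, against 2.74 and 2.93 in WT fibroblasts, a difference of 8.25 ± 0.28 (SE; adjusted p = 3.06e-11). Marco, a scavenger receptor, and Siglecf, a surface lectin of alveolar macrophages, differed less, by 2.04 ± 0.18 and 2.10 ± 0.50 (SE). Of the B cell and MHC class II list, 8 of 11 were higher, among them H2-Aa at 6.30 ± 0.39 and Jchain, which joins antibody subunits, at 5.79 ± 0.46 (SE). Of 12 T and NK cell genes, 6 were higher, with Gzma, a granzyme, at 3.8 ± 0.34 (SE), with 5 of the rest below the filter and 1 tested without a call.

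Neutrophil genes varied between lungs. S100a8, an abundant neutrophil protein, had 9.09, 6.39 and 8.17 log2 in WT lungs, against 3.27 and 3.10 in WT fibroblasts, a difference of 4.70 ± 0.89 (SE; adjusted p = 0.000461). The lung of 1624 was lowest, and 3 of the 8 measured genes were called higher. For red blood cells and platelets, 3 of 9 genes were higher and 1 lower. Counted over the genes tested, these were 3 of 6 and 3 of 7, against 28.6% of all tested genes called higher. These shares rest on few genes and were not tested. In KO, 7 neutrophil genes and 4 genes of red blood cells and platelets were called higher. Hba-a1 had 12.9, 13.5 and 13.8 in WT lungs, against 3.79 and 3.64 in WT fibroblasts, and averaged 13.76 in WT heart. Alas2, the heme enzyme of red cell precursors, had 4.25, 5.43 and 6.93 in WT lungs, against 3.06 and 3.20 in WT fibroblasts, so the lung of 1593 was highest for both genes.

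Mesenchymal genes went both ways, by list. Of 16 genes of lung mesenchyme, 14 were called higher and 2 lower in WT lungs (median difference 3.35). Tcf21, a transcription factor of lung fibroblasts, had 8.75, 9.57 and 9.68 log2 in WT lungs, against 3.23 and 3.12 in WT fibroblasts, a difference of 6.16 ± 0.28 (SE; adjusted p = 5.35e-10). Tbx4, a T-box factor of lung mesenchyme, differed by 5.39 ± 0.23 and Ces1d, a carboxylesterase, by 8.31 ± 0.16 (SE). Tcf21 lay below the table median in both cultures. Inmt, a methyltransferase, had 12.9, 13 and 13.2 in WT lungs, against 6.10 and 3.47 in WT fibroblasts. In WT heart the mean was 9.52 for Ces1d and 8.62 for Inmt, so both were high in another organ as well. The mean over the list was 8.61 to 9.13 in WT lungs, 5.96 to 6.23 in WT heart and 5.39 to 5.75 in WT fibroblasts. The 2 genes called lower were Fgf10, a growth factor for lung budding, at -1.71 ± 0.24, and Cdh11, a mesenchymal cadherin, at -2.18 ± 0.47 (SE).

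The general fibroblast list ran the other way, with 16 of 20 genes called lower and 1 higher (median difference -2.88). For Col1a1 the difference was -4.98 ± 0.40 (SE; adjusted p = 1.37e-07) and for Thy1 it was -5.71 ± 0.30 (SE; adjusted p = 1.86e-09). Col3a1, the chain of type III collagen, fell less, by 1.89, with 11.2, 11.6 and 11 log2 in WT lungs, against 13.4 and 12.9 in WT fibroblasts. Dpt, the matrix protein dermatopontin, was the 1 gene called higher, with 10.8, 11 and 10.8 in WT lungs, against 10.5 and 6.98 in WT fibroblasts (difference 2.13 ± 0.74, SE; adjusted p = 0.0241). The cultures lay far apart for Dpt, and without culture 1623 its difference was 0.38 (adjusted p = 0.604). The call was also lost without lung 1624 (adjusted p = 0.054) and in a fit of the 5 compared arrays (0.0944).

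Transcription factors separated the sources. Of 20 factors of lung epithelium and endothelium, 13 were higher and 2 lower. Foxa1, a pioneer factor of endoderm, had 9.94, 9.20 and 9.29 log2 in WT lungs, against 2.99 and 2.94 in WT fibroblasts, a difference of 6.51 ± 0.23 (SE; adjusted p = 4.61e-11). Sox2, a factor of airway epithelium, differed by 5.17 ± 0.33 and Foxa2, a relative of Foxa1, by 4.58 ± 0.23 (SE). The 2 called lower were Sox9, at -5.03 ± 0.34, and Foxc2, at -4.21 ± 0.33 (SE). Sox9, known from cartilage and from developing lung tips, had 2.82, 2.87 and 2.69 in WT lungs, against 8.06 and 7.59 in WT fibroblasts and so lay below the table median in every lung.

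Of 22 skin and mesenchyme factors, 13 were lower and 3 higher (median difference -1.96). Prrx2, a homeobox factor of mesenchyme, had 2.91, 2.47 and 2.54 log2 in WT lungs, against 8.66 and 8.79 in WT fibroblasts, a difference of -6.09 ± 0.17 (SE; adjusted p = 3.05e-12). Twist1 and Twist2, bHLH factors of mesenchyme, fell by 5.70 and 5.63, and Tbx15, a factor of skin and limb patterning, fell by 5.24. All 4 lay below the table median in every lung. Tbx3, Meox2 and Sox11 were higher, by 2.47 ± 0.48, 1.66 ± 0.40 and 1.42 ± 0.28 (SE), and Meox2 lost its call without culture 1623 (0.92, adjusted p = 0.0755). Among 34 measured Hox genes, which encode position along the body, 24 lay below the filter. Of the 10 tested, 6 were higher and 2 lower, against 28.6% and 31.8% of all tested genes. Hoxa5, which is needed for lung formation in mice, had 8.01, 8.32 and 8.35 in WT lungs, against 4.24 and 2.99 in WT fibroblasts (difference 4.61 ± 0.30, SE; adjusted p = 2.01e-08). Hoxb5 differed by 2.95 ± 0.28, whereas Hoxd8 fell by 2.27 and Hoxa2 by 1.44, and for Hoxd8 the cultures had 6.57 and 3.86.

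Collagens split by type. Of 30 measured, 13 were called lower and 5 higher (median difference -0.53). Col11a1, a fibril-forming chain, had 2.87, 2.67 and 2.99 log2 in WT lungs, against 8.62 and 9.94 in WT fibroblasts, a difference of -6.44 ± 0.28 (SE; adjusted p = 3.26e-10). Col8a1, a short-chain collagen of vessel walls, fell by 5.51 and Col5a2, a chain that regulates fibril width, by 4.64. Of the type IV chains of basement membrane, 3 were called higher. Col4a3 had 7.94, 8.91 and 9.49 in WT lungs, against 3.45 and 3.25 in WT fibroblasts, and Col4a4 differed by 5.86 ± 0.26 (SE; adjusted p = 4.68e-10). Col4a6 differed by 1.51 ± 0.26 (SE). Col4a1 and Col4a2, the common chains, had differences of -0.24 and -0.11 without a call. Col4a5, a partner chain of Col4a3 and Col4a4, had 0.10 without a call, while its other probe set was called lower (-0.86, adjusted p = 0.0438). These 3 were added after their values were seen. Col13a1, a membrane-bound collagen, differed by 4.50 ± 0.19 (SE).

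Enzymes that fold and crosslink collagen were lower in 15 of 17 measured genes and higher in 1 (median difference -2.06). Lox, lysyl oxidase, had 6.82, 6.57 and 6.95 log2 in WT lungs, against 13 and 12.8 in WT fibroblasts, a difference of -6.10 ± 0.32 (SE; adjusted p = 1.86e-09). Loxl2 and Loxl3, its relatives, fell by 4.84 and 4.57, and P4ha3, a prolyl hydroxylase, fell by 3.18. P3h2, which hydroxylates basement membrane collagen, was the 1 gene called higher (1.43 ± 0.41, SE), a call lost without culture 1571 (1.26, adjusted p = 0.0665). Of 26 elastic fibre and glycoprotein genes, 14 were lower and 6 higher. Tnc, tenascin C of wounds, had 3.53, 5.6 and 4.02 in WT lungs, against 11 and 11.6 in WT fibroblasts. Vcan, a large proteoglycan, fell by 6.77, while Eln, elastin, rose by 2.42 ± 0.24 and the laminin chains Lama3 and Lamb3 of epithelial basement membrane rose by 5 ± 0.39 and 4.93 ± 0.41 (SE).

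None of 21 matrix proteases and inhibitors was called higher and 13 were lower (median difference -1.38). Timp1, an inhibitor of metalloproteinases, had 5.91, 5.97 and 6.33 log2 in WT lungs, against 12.6 in both WT fibroblasts, a difference of -6.52 ± 0.42 (SE; adjusted p = 1.45e-08). Adam12, a membrane protease, fell by 5.40 and Mmp2, a gelatinase, by 3.49. Integrins, the receptors for matrix, gave 12 of 21 higher and 3 lower. Itgal and Itgb2, which pair on leukocytes, rose by 4.17 ± 0.15 and 4.06 ± 0.34, Itga8 rose by 3.97 ± 0.56 and Itga3 by 3.13 ± 0.35 (SE). The 3 lower ones, Itgav, Itgb1 and Itgb5, fell by 0.90, 0.91 and 0.77, all under 2-fold.

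Secreted signals held the largest negative differences. Of 29 measured genes, 22 were called lower, 18 of them at least 4-fold, and 3 higher (median difference -2.92). Il6, an inflammatory cytokine, had 2.70, 2.54 and 2.67 log2 in WT lungs, against 11.6 and 11 in WT fibroblasts, a difference of -8.65 ± 0.17 (SE; adjusted p = 1.74e-13). Cxcl5, a chemokine for neutrophils, had 3.01, 2.55 and 2.69 in WT lungs, against 11.8 and 11.6 in WT fibroblasts, a difference of -8.98 ± 0.17 (SE; adjusted p = 1.25e-13). Both lay below the table median in every lung. Cxcl1, a related chemokine, had 3.95, 3.02 and 3.76 in WT lungs, against 12.3 and 11.9 in WT fibroblasts. The monocyte chemokines Ccl2 and Ccl7 fell by 7.61 and 7.88, and Grem1, an antagonist of BMP signals, fell by 6.96. Bmp4 itself, a morphogen of lung development, rose by 6.09 ± 0.30, Tgfb2 by 1.24 ± 0.25 and Tgfb1 by 1.13 ± 0.25 (SE). Ptx3, a pentraxin of innate immunity outside the list, had 3.05, 3.02 and 3.11 in WT lungs, against 12.2 and 11.5 in WT fibroblasts (difference -8.78 ± 0.21, SE).

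The promoters of Ptx3 (chr3:66219637-66219936), Il6 (chr5:30012864-30013163) and Cxcl1 (chr5:90890995-90891294), all on the plus strand of GRCm38.p6, are the first with an entry among the genes lower in WT lungs. Capitals mark the same motifs as above, and each window holds a kappa B motif, a motif searched for after these genes had been seen. That of Il6 also holds a TGANTCA and a CCAAT. A match describes the letters and shows no binding.
Ptx3: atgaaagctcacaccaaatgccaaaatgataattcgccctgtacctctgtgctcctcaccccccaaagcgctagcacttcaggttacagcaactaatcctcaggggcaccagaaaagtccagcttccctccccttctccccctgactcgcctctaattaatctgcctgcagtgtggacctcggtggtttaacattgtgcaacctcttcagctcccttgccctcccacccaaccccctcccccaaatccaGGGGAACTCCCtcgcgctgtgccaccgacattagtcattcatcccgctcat
Il6: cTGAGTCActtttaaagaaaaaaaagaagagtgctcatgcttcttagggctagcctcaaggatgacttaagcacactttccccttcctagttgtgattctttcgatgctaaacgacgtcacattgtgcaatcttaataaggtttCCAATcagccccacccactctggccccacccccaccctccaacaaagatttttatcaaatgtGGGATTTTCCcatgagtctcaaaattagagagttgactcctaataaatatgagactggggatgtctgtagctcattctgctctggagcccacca
Cxcl1: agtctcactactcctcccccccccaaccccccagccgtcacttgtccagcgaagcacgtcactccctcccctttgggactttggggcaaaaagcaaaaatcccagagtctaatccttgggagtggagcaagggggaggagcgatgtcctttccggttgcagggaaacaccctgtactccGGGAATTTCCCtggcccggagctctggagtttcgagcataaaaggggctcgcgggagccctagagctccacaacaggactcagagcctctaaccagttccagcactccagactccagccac

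Over the genes called and at least 4-fold different, the motifs were counted as a description. A promoter was found for 904 of 1236 genes at least 4-fold higher, 499 of 652 at least 4-fold lower and 9208 of 11436 tested. The kappa B motif stood in 6.97% of the higher set and 7.01% of the lower set, against 5.04% of all tested genes and 4.35% of 27025 promoters, 1 per gene. TATAAA stood in 12.5% and 12.4%, against 7.70% and 14.2%. GGGCGG, the core of the GC box, stood in 51.1% and 65.3%, against 64.2% and 35.9%, and CCGGAA, the core of ETS sites, in 12.1% and 18%, against 27.9% and 15.2%. The median ratio of observed to expected CpG was 0.504 in the higher set and 0.703 in the lower set, against 0.760 among tested genes. These shares are a description without a test, counted on both strands. The CCAAT box stood in 34.6% of the higher set and 42.5% of the lower set, against 38.4% of the tested genes and 37.9% of all promoters. The AP-1 site TGANTCA stood in 6.53% and 5.61%, against 5.08% and 7.93%, and the TEAD core GGAATG in 14.9% and 14.4%, against 12.4% and 14.6%. The E-box CACGTG stood in 7.41% and 8.02%, against 10.1% and 7.24%, and the CArG box in 2.32% and 2.40%, against 1.42% and 1.57%.

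Contractile genes were mostly lower in WT lungs. Of 17 genes of smooth muscle and stress fibres, 12 were called lower and 3 higher (median difference -1.28). Acta2, smooth muscle actin, which cultured fibroblasts make in stress fibres, had 10.9, 10.5 and 10.3 log2 in WT lungs, against 12.8 and 13.5 in WT fibroblasts, a difference of -2.60 ± 0.55 (SE; adjusted p = 0.00102). Tpm2, a tropomyosin, fell by 2.74 and Myl9, a myosin light chain, by 2.61. The 3 higher genes were Des, desmin, by 4.02 ± 0.32, Myh11, the smooth muscle myosin, by 2.37 ± 0.43, and Synpo2, an actin-binding protein, by 0.80 ± 0.31 (SE). The call for Synpo2 was lost without lung 1592, lung 1593 or either culture, with adjusted p of 0.111, 0.102, 0.122 and 0.127, and also with quantile normalization (0.132), centred arrays (0.0952) or no filter (0.0606). Of 17 targets of TGF-beta, YAP and SRF, 9 were lower and 1 higher. Ccn1, a matricellular target of YAP, had 9.63, 8.6 and 9.33 in WT lungs, against 12.2 and 12.3 in WT fibroblasts, and its relative Ccn2 fell by 1.06, a call lost without culture 1623 (-0.73, adjusted p = 0.137). Crim1, a membrane protein that binds BMPs, rose by 1.02 ± 0.21 (SE).

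Genes of the cell cycle were lower in WT lungs almost throughout. Of 39 measured, 37 were called lower and none higher, 23 at least 4-fold (median difference -2.64). Ccnd1 at -0.34 and Ccnd3 at 0.20, cyclins of the G1 phase, were the 2 without a call and were named after their values were seen. Mki67, the proliferation marker, had 4.80, 5.52 and 5.13 log2 in WT lungs, against 8.02 and 8.33 in WT fibroblasts, a difference of -3.02 ± 0.20 (SE; adjusted p = 2.28e-08). Cdk1, the mitotic kinase, fell by 4.66 and Rrm2, a subunit of ribonucleotide reductase, by 4.65. Among p53 and senescence genes, the cell cycle inhibitor Cdkn2a, which encodes p16 and p19ARF, had 3.32, 2.96 and 3.46 in WT lungs, against 9.62 and 9.24 in WT fibroblasts (difference -6.19 ± 0.20, SE; adjusted p = 1.64e-11), and Cdkn1a, p21, fell by 3.27. Cdkn2b, p15, differed by -0.31 without a call. In all, 11 of the 17 genes of this list were lower and none higher (median difference -1.56).

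Genes of ribosome biogenesis and RNA polymerase I were lower in 18 of 24 and higher in 1 (median difference -0.98). Myc, which drives this programme, had 5.46, 5.27 and 5.15 log2 in WT lungs, against 8.36 and 8.15 in WT fibroblasts, a difference of -2.97 ± 0.18 (SE; adjusted p = 7.57e-09). Nop58, a core snoRNP protein, fell by 1.76 and Npm1, nucleophosmin, by 1.17. Ubtf, the upstream binding factor of RNA polymerase I, was the 1 called higher (0.51 ± 0.18, SE), but its other probe set was called lower (-0.92 ± 0.22, SE), so the gene has no settled direction. The higher call was lost with centred arrays (adjusted p = 0.122) and without lung 1624 (0.0589), lung 1593 (0.0673) or culture 1623 (0.17). Of 28 ribosomal protein genes, 9 were lower, a share close to the 31.8% of all tested genes, and none was higher (median difference -0.23), and with arrays centred on their medians 21 were lower. Rps2 fell by 0.90 and Rplp0 by 0.72.

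**Figure D4:**
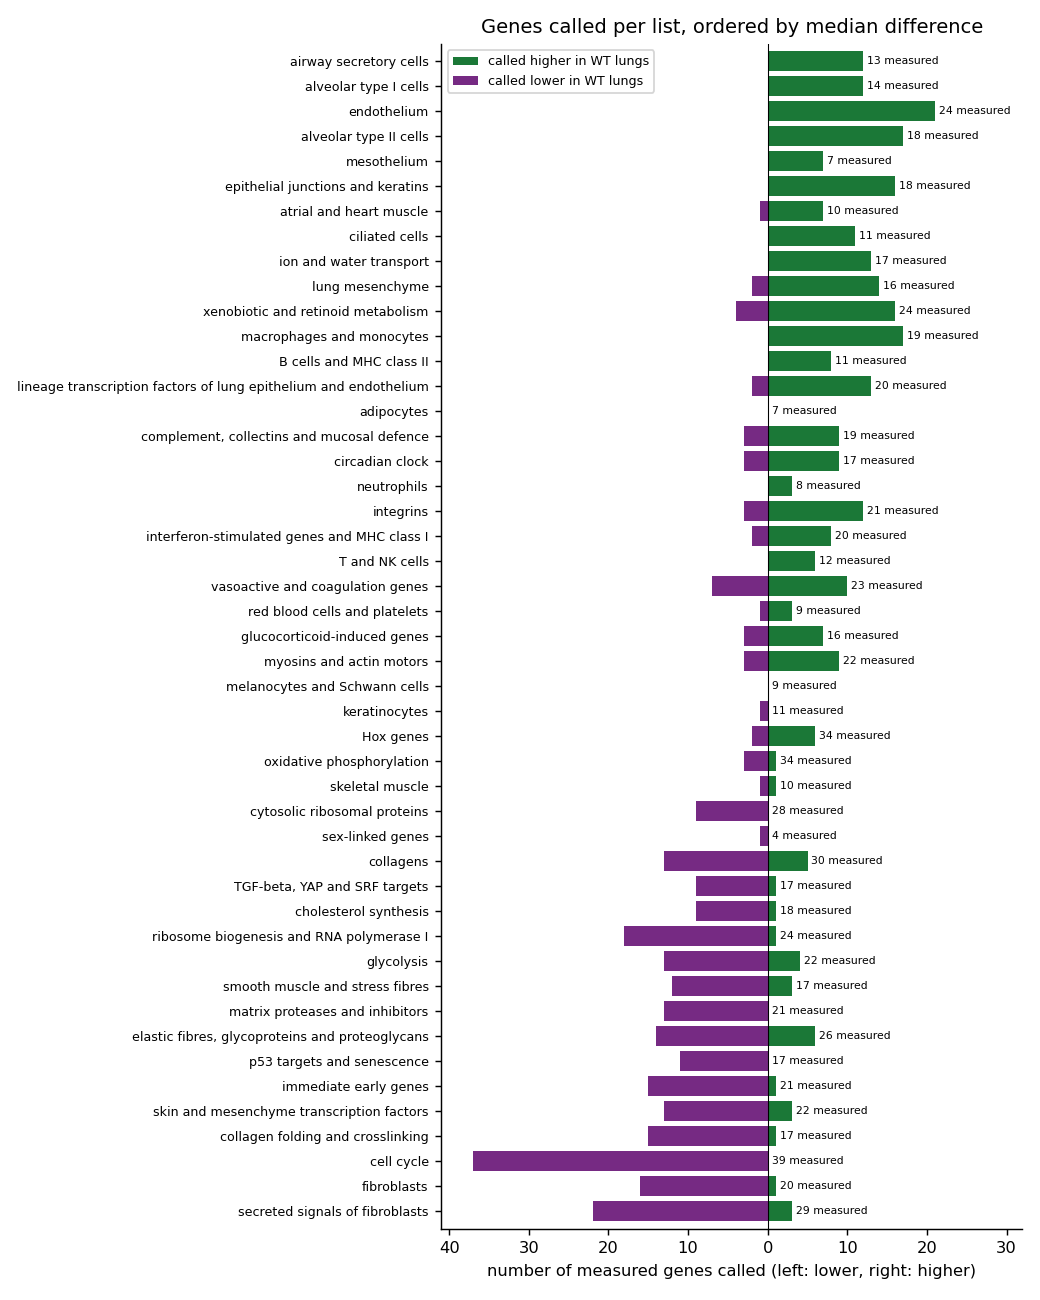
Number of measured genes called higher (right, green) and lower (left, purple) in WT lungs for each of 47 gene lists, ordered by the median difference of the list, with the number measured beside each bar. The cell cycle list has 37 of 39 genes called lower, and the endothelium list has 21 of 24 called higher. Over all tested genes, 28.6% were called higher and 31.8% lower.

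Energy genes differed by pathway. Of 34 genes of oxidative phosphorylation, 1 was higher and 3 lower (median difference -0.06), and with arrays centred on their medians 9 were lower. The 1 higher, Cox7a1, a muscle form of a cytochrome oxidase subunit, had 8.14, 5.88 and 6.07 log2 in WT lungs, against 3.57 and 3.65 in WT fibroblasts, and 12.55 on average in WT heart. For Cox7a1 the lung of 1592 was again highest, and without it the difference was 2.36 (adjusted p = 0.0779). The call was also lost without culture 1571 (adjusted p = 0.0798) or culture 1623 (0.0756). Of 22 glycolysis genes, 13 were lower and 4 higher (median difference -1). Pgk1, phosphoglycerate kinase, fell by 2.57, Slc2a1, the glucose transporter GLUT1, by 2.56 and Pkm, pyruvate kinase, by 2.30, while Ldhb, the heart form of lactate dehydrogenase, rose by 2.14 ± 0.19 (SE). Of 18 cholesterol synthesis genes, 9 were lower and 1 higher, with Hsd17b7 lowest at -2.81 ± 0.50 and Cyp51 at -1.67 ± 0.28 (SE). Leaving out 1 array at a time gave 4 to 10 lower calls in this list.

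Genes that handle foreign compounds and retinoids were mostly higher in WT lungs. Of 24 xenobiotic and retinoid genes, 16 were higher, all at least 4-fold, and 4 lower (median difference 3.24). Cyp2b10, a cytochrome P450, had 10.6, 10.7 and 10.9 log2 in WT lungs, against 2.57 and 2.46 in WT fibroblasts, a difference of 8.24 ± 0.16 (SE; adjusted p = 1.74e-13). Fmo2, a flavin monooxygenase, differed by 8.39 ± 0.37 and Cyp4b1 by 7.97 ± 0.30 (SE). The mean in WT heart was 8.86 for Fmo2 and 3.05 for Cyp2b10. The 4 lower genes were Crabp1 and Crabp2, which bind retinoic acid, Cyp1b1 and Nqo1, with the call for Crabp2 lost without culture 1623 (adjusted p = 0.146). Crabp1 had 2.76, 2.99 and 3.22 in WT lungs, against 8.28 and 10.1 in WT fibroblasts, and Cyp1b1, a P450 of mesenchyme, fell by 5.73.

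Ion and water transport genes, which keep the alveolar surface thin and moist, were higher in 13 of 17 and lower in none (median difference 3.41). Scnn1a, Scnn1b and Scnn1g, the subunits of the epithelial sodium channel, differed by 4.18 ± 0.18, 4.54 ± 0.23 and 5.70 ± 0.26 (SE). Vasoactive and coagulation genes were mixed, with 10 of 23 higher and 7 lower, against 28.6% and 31.8% of all tested genes. The lower share was thus near that of all tested genes. Ednrb, an endothelin receptor, rose by 5.83 ± 0.35 and Ramp1, a receptor partner, by 4.04 ± 0.26 (SE), whereas Adm, adrenomedullin, fell by 6.07 and Ptgs2, inducible cyclooxygenase, by 3.85. Ace, the enzyme that makes angiotensin II, had 5.12, 5.93 and 5.94 log2 in WT lungs, against 3.85 and 3.90 in WT fibroblasts.

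Of 19 complement and mucosal defence genes, 9 were higher and 3 lower (median difference 1.20). Masp1, a protease of the lectin pathway, had 3.21, 3.70 and 4.05 log2 in WT lungs, against 9.88 and 10.4 in WT fibroblasts, a difference of -6.48 ± 0.34 (SE; adjusted p = 2.24e-09). MHC class I genes were higher, with H2-K1 at 2.75 ± 0.22 and H2-D1 at 2.55 ± 0.23, and so were the immunoproteasome subunits Psmb9 and Psmb8 at 3.11 ± 0.27 and 2.61 ± 0.39 (SE). Of the 20 interferon and MHC class I genes, 18 were tested. Of these 18, 8 were higher and 2 lower, against 28.6% and 31.8% of all tested genes. Xaf1, an interferon-induced gene, had 2.81, 3.10 and 3.41 in WT lungs, against 8.63 and 3.54 in WT fibroblasts, so 1 culture set its difference of -2.98 ± 0.91 (SE; adjusted p = 0.0122), and in KO the difference was 0.73. With the fit restricted to the 5 compared arrays the adjusted p was 0.105, and with the 8 WT arrays it was 0.0519.

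Genes of the circadian clock, the daily oscillator of nearly all cells, also went both ways. Of 17 measured (median difference 1.19), 16 were tested. Of these 16, 9 were higher and 3 lower, against 28.6% and 31.8% of all tested genes. Per2, a repressor of the clock, had 7.80, 7.99 and 8.24 log2 in WT lungs, against 4.15 and 4.51 in WT fibroblasts, a difference of 3.68 ± 0.38 (SE; adjusted p = 2.11e-06). The PAR-domain factors Hlf, Tef and Dbp rose by 3.78 ± 0.53, 3.07 ± 0.24 and 2.45 ± 0.30 (SE). Nfil3, which represses genes that these factors activate, had 4.53, 4.36 and 4.26 in WT lungs, against 8.75 and 8.76 in WT fibroblasts, and Arntl, the activator BMAL1, fell by 3.18. The labels state no hour at which lungs or cells were taken.

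Immediate early genes, which respond within minutes to growth factors and stress, were lower in 15 of 21 and higher in 1 (median difference -1.73). Fosb had 3.19, 2.84 and 2.91 log2 in WT lungs, against 7.57 and 7.24 in WT fibroblasts, a difference of -4.42 ± 0.16 (SE; adjusted p = 5.64e-11). Egr1 fell by 4.04 and Fos by 3.97, and Klf2, a flow-induced factor of endothelium, was the 1 called higher (2.21 ± 0.28, SE). Among 16 glucocorticoid-induced genes, 15 were tested. Of these 15, 7 were higher and 3 lower, against 28.6% and 31.8% of all tested genes. Zbtb16 rose by 4.64 ± 0.47 and Tsc22d3 by 4.44 ± 0.22 (SE), while Mt1, a metallothionein, fell by 2.12, Cebpd by 1.31 and Sgk1 by 1.18.

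NM1, the protein removed in the KO, belongs to the myosin family of motor proteins. Of 22 measured genes on the myosin list (median difference 0.13), 18 were tested. Of these 18, 9 were called higher and 3 lower, against 28.6% and 31.8% of all tested genes. Myo1c had 10.3, 10.7 and 10.9 log2 in WT lungs, against 9.82 and 10.2 in WT fibroblasts, a difference of 0.64 ± 0.22 (SE; adjusted p = 0.0193) at the brightest of its 4 probe sets, and 1 of the others had the opposite sign (-0.27 ± 0.36, SE; adjusted p = 0.534). Its call was lost without lung 1624 (adjusted p = 0.0512), lung 1593 (0.0766) or culture 1571 (0.179), and with arrays centred on their medians (0.1) or a fit of the 5 compared arrays (0.0567). Myo5c and Myo5b, transport motors of epithelia, rose by 4.59 ± 0.21 and 4.56 ± 0.24 (SE). Myo5a, their relative in melanocytes and neurons, fell by 2.13, Myo7a by 1.33 and Myo19, a motor of mitochondria, by 0.93, which was not called without culture 1623 (adjusted p = 0.0753).

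Markers of other skin cells were weak in the cultures. Of 11 keratinocyte genes, none was higher and Trp63 was the 1 called lower in WT lungs (-0.86 ± 0.19, SE), with 3.92 and 3.98 log2 in WT fibroblasts, while Krt14 was 2.80 and 2.92 there. None of 9 melanocyte and Schwann cell genes was called, and Tyr was 2.66 and 2.38 in WT fibroblasts. Lung-type transcripts differed between the cultures in both directions, with Scgb1a1, Cyp2f2 and Inmt higher in culture 1571 and Aqp5 higher in 1623. The mean over the type I list was 5.82 log2 in culture 1571 and 6.16 in 1623. Among the 25282 members, 716 were at least 1 log2 higher in culture 1571 than in 1623 and 443 at least 1 log2 higher in 1623. Of the 2171 probe sets at least 4-fold higher in lungs, 103 were that much higher in culture 1571 and 76 in 1623. Of the 1402 at least 4-fold lower in lungs, 141 were that much higher in culture 1571 and 62 in 1623.

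**Figure D5:**
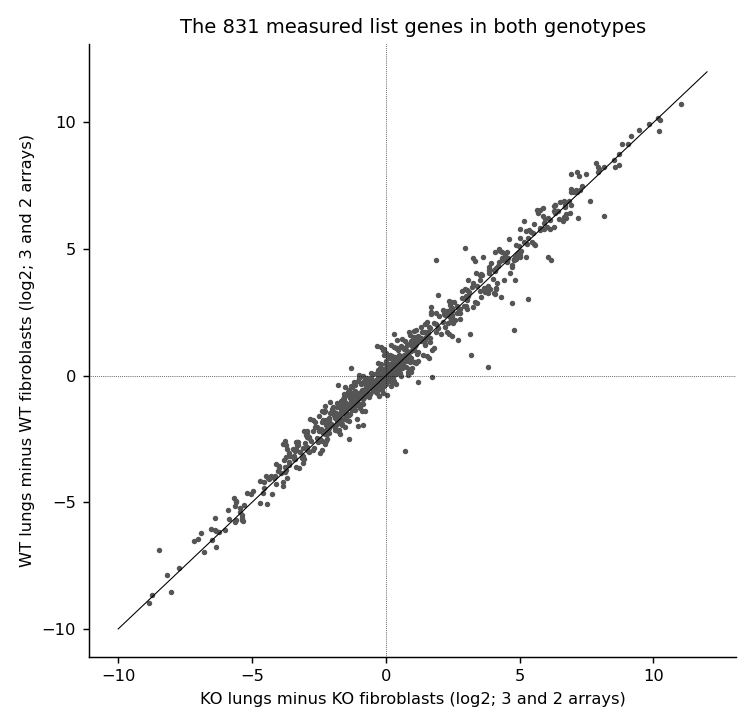
Difference between lungs and fibroblasts in WT (vertical axis) against the same difference in KO (horizontal axis), in log2, for the 831 measured list genes, with the line of equality. Points broadly follow the line. Xaf1 is among those off it, at -2.98 in WT and 0.73 in KO, and the adipocyte list has a median of 1.57 in WT and 3.18 in KO.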

How the data were processed

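Log2 signals of 16 Affymetrix arrays were used as deposited by the authors. Partek 6.4 is named in the submitters' processing notes. Background correction, probe summary and normalization were not given in the sources used here. Trizol RNA was the starting material, per the labels' protocols. After 104 control entries were set aside, 45037 probe sets remained. Of these, 28898 carry exactly 1 gene in the platform annotation, 551 several and 15588 none, and they cover 17097 genes, 28689 probe sets being matched to current symbols by gene number.

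A model of 6 group means was fitted to all 16 arrays with limma 3.58.1 in R 4.3.3 (10 residual and 3.74 prior degrees of freedom), with two-sided p-values adjusted by Benjamini-Hochberg over the 25282 probe sets kept. The filter used the compared groups, so a probe set that passed through 1 group alone had to differ. Mouse numbers were taken to mark different animals. Lungs and hearts of each genotype came from the same mice, a pairing the main fit did not model. The SE and p-values rest on the spread within the 6 groups of all 16 arrays, not within the 5 compared arrays alone. Sftpc had an SD of 0.11 in WT lungs and 0.10 in WT fibroblasts, beside an SE of 0.53. Inmt had an SD of 1.86 in WT fibroblasts, beside an SE of 0.69. The smallest mean absolute difference between any 2 of the 5 arrays was 0.19, so none was a copy. The number of arrays limits the precision. All 16 value columns were mapped to samples. The script was tested on simulated data. Of 100 probe sets changed by 1 log2 there, 52 were called, and of 100 changed by 2 log2, 87 were, with 11 calls among unchanged probe sets. All other probe sets there had equal means in lungs and fibroblasts, whereas 58.8% of the members were called in the real contrast. The adjustment was thus stricter in the simulation, and its shares do not give the recovery in the real contrast. With 3 lungs and 2 cultures, a missing call does not show equal levels.

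The members and the 47 gene lists (940 genes, 831 measured) were chosen with earlier results of these data known. Genes were named by rule: the markers, Myo1c and the 10 largest called differences each way among genes without overlap between the groups. Of each list, its first 3 measured genes were named, with up to 4 called genes with the largest difference each way. The genes without a call that are named as exceptions were chosen after their values were seen. Settings changed one at a time were the normalization, the filter, the arrays fitted, the variance model, a minimum difference, 1 probe set per gene and each array left out.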

Additional observations from a re-analysis of the deposited data

Results flagged for a closer look

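The difference between KO and WT in the contrast of lungs with fibroblasts was tested in the same limma model, a test chosen after seeing the data. It called 3 of 26129 probe sets, with 1016 at an unadjusted p under 0.05. Chodl, which encodes the membrane lectin chondrolectin, had a contrast of -3.83 in KO and -0.63 in WT, a difference of -3.20 (adjusted p = 0.0195). Its log2 signal was 6.45 and 6.92 in KO fibroblasts 1584 and 1550, against 3.24 and 3.49 in WT fibroblasts 1571 and 1623, with 2.65 to 3.05 in the lungs of both genotypes. Moxd1, which resembles copper monooxygenases, had -2.87 in KO and -0.62 in WT, a difference of -2.26 (adjusted p = 0.0264). It had 5.71 and 5.52 in KO fibroblasts, against 2.90 and 3.78 in WT fibroblasts. A probe set without a single gene name in the annotation used here had -3.40 in KO and -0.56 in WT, a difference of -2.84 (adjusted p = 0.015). In all 3 the cultures differed and the lungs did not separate. With 2 cultures per genotype, a difference between genotypes and one between single cultures cannot be told apart.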

How the results depend on the processing

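Against 14871 probe sets called, 7045 higher and 7826 lower, with 3573 at least 4-fold different, a minimum difference of 1 log2 in limma's treat test left 4451, 2475 and 1976, and 1 probe set per gene, which tests fewer features, left 7023, 3317 and 3706, with 1887 at least 4-fold different. Requiring both group means above the table median, which tests fewer probe sets, left 4180 higher, 6198 lower and 1771 at least 4-fold different. In KO, 16407 were called, 5252 by treat and 7399 with 1 probe set per gene. Leaving out each array in turn gave 11826 to 13862 called, 5421 to 6591 higher, 6405 to 7271 lower and 3523 to 3706 at least 4-fold different. With the mouse as a random replicate block (consensus correlation 0.0458), 14875 were called, 7048 higher, 7827 lower and 3573 at least 4-fold different. No lung and fibroblast array shared a mouse, so no pairing within the contrast was possible. Small uncalled differences changed sign: with arrays centred on their medians Col4a5 was -0.10, Flt4 -0.15, Krt14 -0.14, Ramp2 -0.09, Tyr -0.10 and Xist -0.11; with quantile normalization Col4a2 was 0.02, Flt4 -0.02 and Xist -0.05; and with each array left out in turn Col4a1 ranged from -0.51 to 0.07, Col4a2 from -0.27 to 0.15, Col4a5 from -0.03 to 0.23, Flt4 from -0.05 to 0.15, Igfbp2 from -1.02 to 0.13, Krt14 from -0.07 to 0.15, Tyr from -0.05 to 0.23 and Xist from -0.01 to 0.14. The precision is limited by 3 lungs and 2 cultures, and without detection calls, differences near the table median of 3.79 are the least certain.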
